A study of Homo sapiens with 7 samples.

Results

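The human genes named ZNF and a number encode zinc finger proteins, and most belong to the C2H2 class, in which repeated fingers bind DNA. Every listed region whose nearest gene carries such a symbol was taken from the authors' deposited lists of changed chromatin regions. This gave 152 of 8815 listed regions, at 110 of 5952 genes with a listed region. Of these regions, 145 gained accessibility after PHF19 knockdown, at 103 genes, and 7 lost it, at 7 other genes. No ZNF gene was in both lists.

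Many ZNF proteins carry a KRAB domain, which recruits the corepressor TRIM28 and the histone H3 lysine 9 methyltransferase SETDB1. KRAB zinc finger proteins silence transposable elements in this way, and each tends to bind its own set of elements. The family grew by tandem duplication, so that many members stand in clusters of similar neighbours, the largest of them on chromosome 19. Members without a KRAB domain have varied roles in transcription, chromatin and RNA handling.

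The study used ATAC-seq, in which a transposase cuts open chromatin, in Kasumi-1, an established acute myeloid leukaemia line with the RUNX1-RUNX1T1 fusion gene. There were 3 libraries from cells with an shRNA against PHF19 and 4 from cells with a scrambled shRNA, which the labels' treatment field calls WT. All cells were given puromycin at 2 µg/ml from 48 hours after the shRNA for at least 24 hours, and each library used 10000 cells. PHF19 is a Polycomb-like accessory subunit of PRC2, the complex that methylates histone H3 at lysine 27, and the comparison asks which regions open or close when it is reduced. The labels do not say whether libraries came from separate cultures, and PHF19 levels were not analysed here.

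Folds, means and FDR given below for a region were taken unchanged from the authors' deposited tables. A log2 fold is knockdown over control, and reads are the authors' mean normalised read counts of a group, unlogged from the deposited log2 means. The tables hold no value per library, so no SD can be given and the spread between libraries enters only through the authors' FDR. The deposited log2 fold is not the plain difference of the log2 means, whose median over the gained ZNF regions was 1.14, against 0.90 for the deposited fold, so that dividing the reads of a region gives a larger ratio. A region was listed at an FDR of at most 0.05 and a fold of at least 1.5. In bulk cells, more cells with an open region and a more open region in each cell cannot be told apart. Coordinates are as deposited and read as hg19.

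Promoters of some ZNF genes share stretches of sequence, and others do not. The 250 bases upstream of the start site are printed below, from RefSeq on GRCh38.p14, for 4 genes with a large gain at the promoter and for 2 of the genes with a loss. Capitals mark the letters TCCAATCA, an extended form of the CCAAT box, the letters GTCACTCA, and the core of the motif of ETS factors, CCGGAAG, on either strand.
ZNF493 (chr19:21396883-21397132, plus strand, gained): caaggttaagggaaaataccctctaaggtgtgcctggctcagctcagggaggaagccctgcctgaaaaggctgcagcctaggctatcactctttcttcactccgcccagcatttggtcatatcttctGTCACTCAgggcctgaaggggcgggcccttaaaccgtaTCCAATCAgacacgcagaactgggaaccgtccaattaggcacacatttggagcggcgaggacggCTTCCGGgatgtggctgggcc
ZNF141 (chr4:337564-337813, plus strand, gained): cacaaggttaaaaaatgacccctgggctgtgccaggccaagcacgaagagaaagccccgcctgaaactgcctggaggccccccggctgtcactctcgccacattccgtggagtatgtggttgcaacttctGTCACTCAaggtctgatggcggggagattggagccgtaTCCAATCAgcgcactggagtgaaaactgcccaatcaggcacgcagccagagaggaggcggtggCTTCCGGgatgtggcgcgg
ZNF678 (chr1:227563306-227563555, plus strand, gained): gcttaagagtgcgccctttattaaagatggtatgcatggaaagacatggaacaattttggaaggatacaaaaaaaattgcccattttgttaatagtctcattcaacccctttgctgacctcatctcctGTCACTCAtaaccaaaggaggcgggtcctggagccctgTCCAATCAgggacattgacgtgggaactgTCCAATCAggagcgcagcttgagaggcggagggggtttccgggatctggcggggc
ZNF800 (chr7:127392709-127392958, minus strand, gained): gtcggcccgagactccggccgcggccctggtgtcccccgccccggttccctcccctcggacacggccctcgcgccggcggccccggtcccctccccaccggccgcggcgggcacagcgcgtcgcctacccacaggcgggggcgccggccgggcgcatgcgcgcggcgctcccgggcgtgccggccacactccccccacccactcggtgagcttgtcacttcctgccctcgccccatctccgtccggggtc
ZNF878 (chr19:12052962-12053211, minus strand, lost): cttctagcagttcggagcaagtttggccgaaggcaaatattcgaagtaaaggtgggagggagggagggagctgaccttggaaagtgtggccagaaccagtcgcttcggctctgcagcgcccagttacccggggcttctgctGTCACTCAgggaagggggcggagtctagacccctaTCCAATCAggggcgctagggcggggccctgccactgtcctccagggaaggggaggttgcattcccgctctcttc
ZNF441 (chr19:11766750-11766999, plus strand, lost): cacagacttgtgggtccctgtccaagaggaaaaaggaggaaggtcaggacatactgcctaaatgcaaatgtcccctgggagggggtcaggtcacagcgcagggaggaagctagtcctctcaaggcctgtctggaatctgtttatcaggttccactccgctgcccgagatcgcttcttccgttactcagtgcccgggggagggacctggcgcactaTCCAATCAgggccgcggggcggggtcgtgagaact

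ZNF493, ZNF141 and ZNF678 stand on 3 chromosomes and carried the same pair of elements in the same order. GTCACTCA began 123, 120 and 122 bases before the start in ZNF493, ZNF141 and ZNF678. TCCAATCA followed 38 bases later in each of these 3 genes. ZNF878, which lost accessibility, had the pair at a spacing of 35 bases. ZNF441, also lost, had TCCAATCA alone. ZNF800 had none of the marked letters, and 80.4% of its window was G or C. The windows of the gained genes ZNF787, ZNF45, ZNF713 and ZNF398 and of the lost gene ZNF181, not printed, held neither 8-base element, and 7.99% of all ZNF windows had both. ZNF221 and ZNF524, also among the largest promoter gains of chromosome 19, had no window and could not be read. A window was available for 77 of the 88 coding ZNF genes with a gained promoter.

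Pooled over chromosomes, gained promoters were about as frequent at ZNF genes as at other genes, while gains at distal regions alone were rarer. Of 517 protein-coding ZNF genes, 100 had a gained region, 19.3% (95% Clopper-Pearson interval 16.0 to 23%), beside 25.4% of other protein-coding genes and 25.2% of all protein-coding genes. A gained promoter region was found at 88 of them, 17% (13.9 to 20.5%), beside 17.5% of all protein-coding genes. Distal gains were the sole kind at 12 ZNF genes, 2.32% (1.2 to 4.02%), against 1533 other genes, 7.85% (7.47 to 8.23%). This contrast was pooled, and few genes of either kind had distal gains alone on chromosome 19, which holds 250 of the ZNF genes. There, 26 ZNF genes were gained, 24 of them at the promoter, beside 173 and 159 of 1201 other genes. Off it, 74 of 267 ZNF genes were gained, 64 of them at the promoter, beside 4789 and 3270 of 18319 other genes. Over regions, 16.4% of the 52675 tested were gained and 0.38% lost, and ZNF regions were 1.68% of the gained and 3.5% of the lost. Intervals cover counting error only, and neighbouring regions and genes are not independent. How many tested regions lay at ZNF genes is unknown here, and a gene without a listed region was not shown to be unchanged.

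Gained ZNF genes were 100 protein-coding genes, the long non-coding RNA genes ZNF407-AS1 and ZNF561-AS1 and the transcribed pseudogene ZNF767P. Of the 103, 73 had 1 gained region, 23 had 2 and 7 had 3 or more. The 7 lost genes were all protein-coding, 1.35% of ZNF genes (0.546 to 2.77%) beside 0.804% of other protein-coding genes and 0.818% of all protein-coding genes.

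Gained ZNF regions averaged 8.25 to 170 reads in the knockdown and 1 to 89.4 reads in the control. Their medians were 36.1 reads in the knockdown and 16.5 reads in the control. The median log2 fold was 0.90 (interquartile range 0.79 to 1.07), beside 0.97 over all gained regions. The least and greatest log2 folds were 0.60 and 1.81. A log2 fold of at least 1 was reached by 49 of the 145, 33.8%, beside 43.4% of all gained regions. In these medians, ZNF regions had more reads than gained regions at large (27.5 reads in the knockdown and 11.2 reads in the control) and a slightly smaller fold, but ZNF promoter regions taken alone had fewer reads than all gained promoter regions, as given below. Of the ZNF regions, 13 (8.97%) averaged under 10 reads over all libraries, beside 26.9% of all gained regions. The FDR was 0.01 or less at 70 ZNF regions, 48.3%, beside 45.9% of all gained regions.

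**Figure D1:**
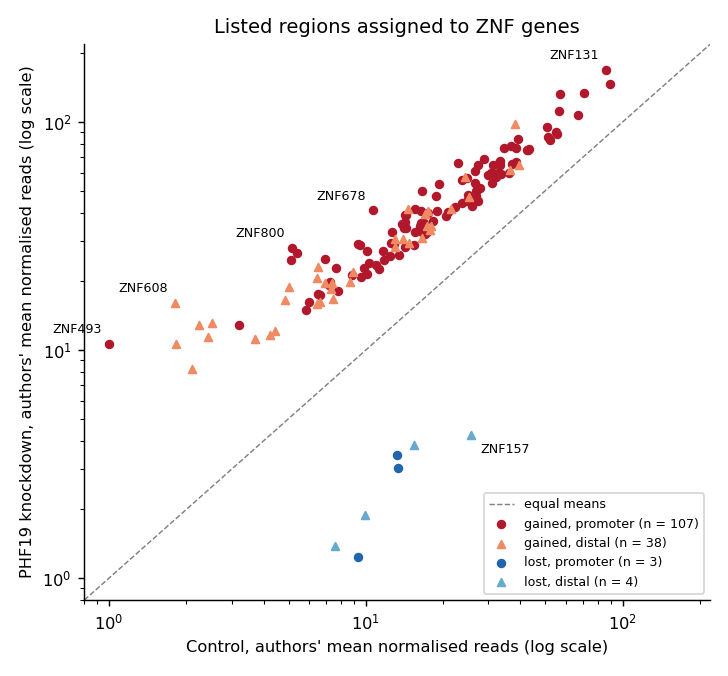
Authors' mean normalised reads of the 152 listed ZNF regions, with the knockdown (3 libraries) on the y axis against the control (4 libraries) on the x axis, both on log scales, circles for promoter and triangles for distal regions. The 145 gained regions lie above the line of equal means and come nearer to it at high reads, with ZNF131 highest at 170 and 86.1 reads, and the 7 lost regions lie below it with at most 4.23 reads in the knockdown.

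The largest folds were at regions with few reads in the control. The largest of all was distal, 132 kb upstream of ZNF608 on chromosome 5 (124216600 to 124217000), with 16.1 reads in the knockdown and 1.80 reads in the control, a log2 fold of 1.81 (FDR 0.00021). A second ZNF608 region lay 736 kb upstream, with 12.1 reads in knockdown cells against 4.41 in control cells. At both distances another gene may be the one concerned, since the deposited tables assign a region to the nearest start only.

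The promoter of ZNF800 on chromosome 7 (127032035 to 127032435) had a mean of 28.1 reads in the knockdown against 5.14 in the control, a log2 fold of 1.80 (FDR 1.87e-05). This region covered the start. ZNF221 followed on chromosome 19 (44455105 to 44455505), where the promoter had 26.7 reads in the knockdown and 5.39 reads in the control, with a log2 fold of 1.75 (FDR 2.32e-05). ZNF221 is a KRAB gene of a cluster with 20 coding ZNF genes, of which only its neighbour ZNF45 was also gained.

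The promoter of ZNF141 on chromosome 4 (331289 to 331689) had 24.8 reads in knockdown cells against 5.10 in control cells, a log2 fold of 1.70 (FDR 4.52e-05). ZNF678 on chromosome 1 (227751026 to 227751733) had a mean of 41.0 reads in the knockdown against 10.7 in the control, a log2 fold of 1.59 (FDR 1.17e-05). These 2 genes and ZNF493 are the ones whose promoters are printed above with the shared pair of elements. ZNF493 on chromosome 19 (21579665 to 21580065) had 10.6 reads in the knockdown, while its control mean stood at 1, the floor of the deposited means, so its log2 fold of 1.5 (FDR 0.00181) rests on a control level that the table does not resolve.

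ZNF713 on chromosome 7 had 25.2 reads in the knockdown and 6.92 reads in the control, with a log2 fold of 1.41. ZNF398, also on chromosome 7 and known as a partner of the estrogen receptor, had 49.8 reads in knockdown cells against 16.5 in control cells, with a log2 fold of 1.35. The distal regions of ZNF804A and ZNF682 completed the 10 protein-coding ZNF genes with the largest folds, at log2 folds of 1.37 and 1.31. The promoter of the pseudogene ZNF767P stood between these, at 1.34. Of the 10 coding genes, 3 had their largest gain at a distal region.

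The most accessible gained regions were promoters, most of them with modest folds. ZNF131, a BTB-domain transcription factor on chromosome 5 (43121384 to 43121784), had the highest level, with a mean of 170 reads in the knockdown against 86.1 in the control, a log2 fold of 0.92. ZNF7 had 147 reads in the knockdown and 89.4 reads in the control. ZNF595 had 134 reads in knockdown cells against 70.5 in control cells. ZNF57 had a mean of 107 reads in the knockdown against 67.2 in the control, with the smallest fold of any gained ZNF region (log2 fold 0.60). The smallest FDR fell on a promoter that was also among the 5 with the highest means, but with a larger fold. ZNF277, whose mouse counterpart binds the Polycomb protein BMI1, had 133 reads in the knockdown and 57.0 reads in the control (log2 fold 1.13, FDR 4.73e-07). The next was distal, 5.19 kb upstream of ZNF736, with 98.3 reads in knockdown cells against 38.1 in control cells (log2 fold 1.25, FDR 8.47e-07).

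Promoters held 107 of the 145 gained regions, where a promoter is within 3 kb of a start in the deposited annotation. This was 73.8% (65.8 to 80.7%), beside 50.1% of all gained regions. The start itself was covered by 80 regions (55.2%), beside 34.6% of all gained regions. The remaining 38 comprised 21 intergenic, 13 intronic, 3 exonic and 1 in a 5′ UTR. Regions more than 100 kb from a start numbered 10 (6.90%), beside 16.2% of all gained regions. The gained ZNF regions were therefore nearer to starts than gained regions in general.

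Promoter and distal ZNF regions differed in level more than in fold. The promoter regions had medians of 41.0 reads in the knockdown and 18.7 reads in the control, beside 47.9 reads in the knockdown and 22.9 reads in the control for all gained promoter regions. Their median log2 fold was 0.88, beside 0.89. The distal ones had medians of 21.3 reads in the knockdown and 8.08 reads in the control, beside 16.7 reads in the knockdown and 5.41 reads in the control for all gained distal regions. Their median log2 fold was 0.98, beside 1.02. Within each class the median fold of ZNF regions was thus close to that of all gained regions, while the reads were lower at promoters and higher at distal regions. By gene, 76 of the 103 gained genes had promoter regions only, 15 had both kinds and 12 had distal regions only.

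**Figure D2:**
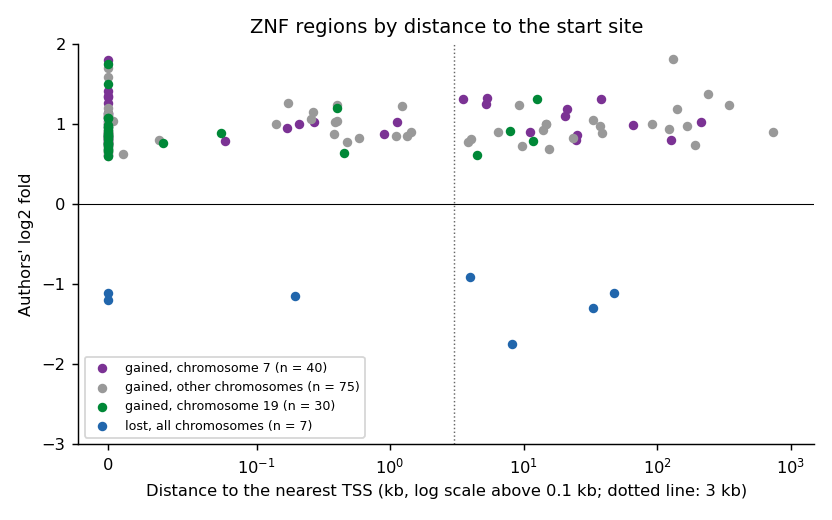
Authors' log2 fold (y axis) of each ZNF region against its distance to the nearest start site in kb (x axis, log scale above 0.1 kb), coloured by chromosome and direction, with a dotted line at 3 kb. Points at 0 are the regions that cover a start, and the distal gained regions right of the dotted line span log2 folds of 0.61 to 1.81.

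Several gained regions at 1 gene were seen at 7 genes, and they were of different kinds. ZNF800 had 5 gained regions along chromosome 7, namely 2 over its starts, 1 in an intron 5.27 kb downstream and 2 intergenic at 3.53 and 38.1 kb. Their log2 folds ran from 0.91 to 1.80, and the intronic region had the lowest means, 10.7 reads in the knockdown and 1.82 reads in the control.

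ZNF804A, a schizophrenia susceptibility gene on chromosome 2, also had 5. Of these, 3 lay at its promoter, 1 in its first intron 167 kb downstream and 1 intergenic 241 kb upstream. The region over its start had a mean of 33.0 reads in the knockdown against 12.7 in the control, with a log2 fold of 1.09, and the others had 12.9 to 19.9 reads in the knockdown and 2.52 to 7.34 reads in the control. Its paralogue ZNF804B on chromosome 7 had 1 region, 212 kb upstream, with 19.6 reads in the knockdown and 7.39 reads in the control.

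ZNF692 had 4 gained regions within 15 kb on chromosome 1, with log2 folds of 0.69 to 1.0, and the 1 over its start had the smallest. ZNF496 had 3, with 22.8, 22.7 and 30.6 reads in the knockdown and 7.66, 11.2 and 13.9 reads in the control. ZNF786 had 3, of which 2 neighbours lay 24.6 and 25.3 kb from its start. ZNF385B and ZNF385D, which encode zinc finger proteins of another type, had 3 each. All 3 of ZNF385B and 2 of ZNF385D were intergenic, at 37.4 to 341 kb from a start.

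Neighbouring regions are not separate observations. In 18 cases a listed ZNF region lay less than 1 kb from the next, and 15 genes had 2 or more gained promoter regions. ZNF425 and ZNF398, head to head in the deposited annotation, shared such a group, with 55.7 reads in knockdown cells against 23.7 in control cells over the ZNF425 start, and 21.4 reads in the knockdown and 8.80 reads in the control at the first ZNF398 start.

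Between chromosome 19, chromosome 7 and the others pooled, ZNF genes and other coding genes stood in the same order of gained share. On chromosome 19, 26 of 250 coding ZNF genes had a gained region, 10.4% (6.91 to 14.9%), beside 14.4% (12.5 to 16.5%) of other coding genes there. On chromosome 7, 23 of 35 did, 65.7% (47.8 to 80.9%), beside 50.9% (47.6 to 54.2%). On the other chromosomes, 51 of 232 did, 22.0% (16.8 to 27.9%), beside 24.9%. In each case the interval of the ZNF genes overlapped that of the other genes of the same chromosomes. The ZNF share was 27.7% off chromosome 19 with chromosome 7 counted and 22.0% without it.

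Gained promoters gave the same order. They were at 24 chromosome 19 ZNF genes, 9.60% (6.25 to 13.9%), beside 13.2% of other genes there. On chromosome 7 they were at 22 genes, 62.9% (44.9 to 78.5%), beside 36.5% of other genes there, and here the interval did not include the share of the other genes. Elsewhere they were at 42, 18.1% (13.4 to 23.7%), beside 16.9%. Of the gained regions themselves, 26 of 30 on chromosome 19 were promoters (86.7%), beside 90.0% of all gained regions of that chromosome. On chromosome 7, 28 of 40 were (70.0%), beside 44.9%, and elsewhere 53 of 75 were (70.7%), beside 49.6%. The high promoter share of chromosome 19 was therefore also that of its other genes, while the shares off it were above theirs.

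Of chromosome 19, chromosome 7 and the other chromosomes pooled, median folds were lowest on chromosome 19, as were those of all gained regions there. The median log2 fold was 0.85 on chromosome 19, beside 0.82 for all gained regions there. It was 0.99 on chromosome 7, beside 1.05, and 0.90 elsewhere, beside 0.96. A log2 fold of at least 1 was reached by 6 of 30 regions on chromosome 19, 19 of 40 on chromosome 7 and 24 of 75 elsewhere. Levels were alike on chromosomes 19 and 7, with medians of 39.97 reads in the knockdown and 18.8 reads in the control on chromosome 19, and of 40.3 reads in the knockdown and 17 reads in the control on chromosome 7. Elsewhere they were somewhat lower, at 34.2 reads in the knockdown and 15.4 reads in the control.

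Other chromosomes held few ZNF genes each, and their intervals were wide. The highest share among them was 4 of 7 on chromosome 15, 57.1% (18.4 to 90.1%), and the lowest was 0 of 4 on chromosome 22, which allows up to 60.2%. Chromosome 16, with 30 coding ZNF genes the third in number, had 4 gained, 13.3% (3.76 to 30.7%), beside 10.2% of its other coding genes.

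**Figure D3:**
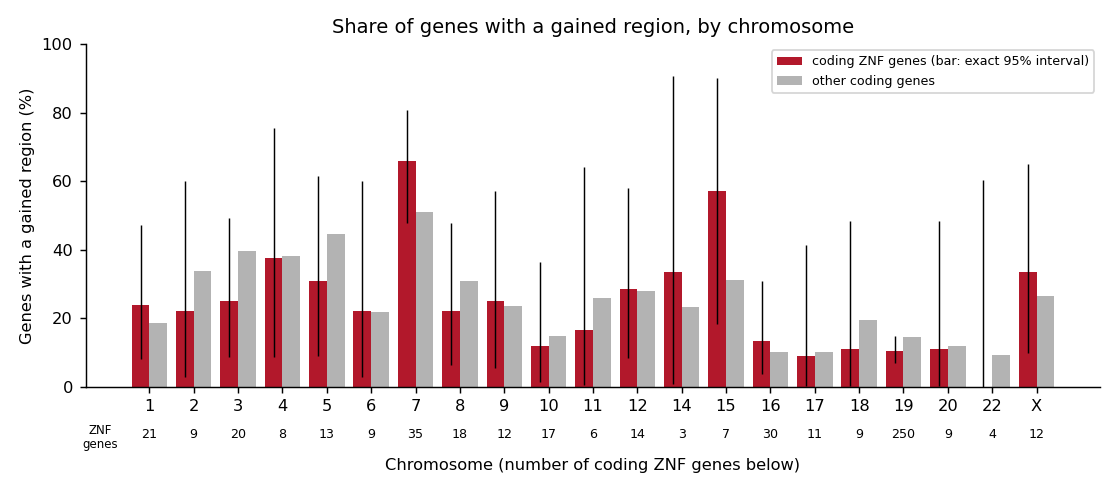
Share of coding genes with a gained region (y axis, percent) for ZNF genes (red, with the exact 95% interval) and other coding genes (grey) on each chromosome with a coding ZNF gene (x axis). Chromosome 7 stands highest for both, at 65.7% and 50.9%, and chromosome 19 has 10.4% and 14.4%.

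Clusters were defined as chains of at least 5 coding ZNF genes with at most 2 other coding genes between neighbours. This gave 22 clusters, of which 12 were on chromosome 19, 2 on chromosome 7 and 8 elsewhere. The shares differed widely among them. In clusters of chromosome 19, 21 of 225 genes were gained, 9.33% (5.87 to 13.9%). In those of chromosome 7, 16 of 21 were, 76.2% (52.8 to 91.8%), and in the others 7 of 49, 14.3% (5.94 to 27.2%). Off chromosome 7, the gained share was lower among clustered ZNF genes than among those outside clusters, with 28 of 274 (10.2%, 6.90 to 14.4%) against 49 of 208 (23.6%, 18 to 29.9%). These intervals did not overlap, but 225 of the 274 clustered genes were on chromosome 19, where other coding genes were also gained less often (14.4%, beside 24.9% on the chromosomes other than 7 and 19). On chromosome 19 alone the shares were 9.33% in clusters and 20% (6.83 to 40.7%) for the 25 genes outside them. On the chromosomes other than 7 and 19 they were 14.3% in clusters and 24.0% (18 to 30.9%) outside. Within each of these sets the intervals overlapped. On chromosome 7 the order was reversed, with 76.2% gained in clusters, beside 65.7% (47.8 to 80.9%) of all its coding ZNF genes. Those outside its clusters were few, and the intervals overlapped here too, so this reversal is uncertain. Genes of a cluster have near-identical stretches, how reads that map to several places were handled is not given in the sources used here, and values at such genes are uncertain to that extent.

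The end of chromosome 7 had the densest set. In the cluster from ZNF786 to ZNF862, all 10 coding ZNF genes were gained and all at the promoter (interval 69.2 to 100%), with 15 gained regions in all. Of 20 other coding genes next to this cluster, 9 were gained. In the order of ZNF genes alone, ZNF3, ZNF277 and ZNF800 came before it and made with it an unbroken run of 13 gained genes. These 3 stand far apart, with gained promoter regions starting at 99679308, 111846394 and 127032035, and that of ZNF786 in the cluster at 148787699. The longest run on chromosome 19 was 3, but 10.4% of coding ZNF genes were gained there, against 65.7% on chromosome 7.

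Within that cluster ZNF398 had the largest fold, described above, and ZNF862 the smallest, with a mean of 88.9 reads in the knockdown against 55.8 in the control (log2 fold 0.61). ZNF212 had 53.2 reads in the knockdown and 19.4 reads in the control (log2 fold 1.26). ZNF746, which encodes the parkin substrate PARIS, had 41.5 reads in knockdown cells against 15.5 in control cells (log2 fold 1.14). ZNF425 reached a log2 fold of 1.08, ZNF467 1.03 and ZNF783 1.0. ZNF282, known to bind the long terminal repeat of HTLV-1, had a mean of 44.3 reads in the knockdown against 23.8 in the control (log2 fold 0.78). ZNF777 and ZNF786 had promoter log2 folds of 0.79 and 0.74. The pseudogene ZNF767P, in the same stretch, had 66.3 reads in the knockdown and 22.9 reads in the control (log2 fold 1.34).

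The other cluster of chromosome 7, from ZNF722 to ZNF92, had 6 of 11 genes gained, all 6 with a promoter region, beside 7 of 20 flanking genes. These were ZNF736, ZNF680, ZNF107, ZNF138, ZNF273 and ZNF92. Their promoter regions had 47.7 to 65.9 reads in the knockdown and 25 to 33.1 reads in the control, with log2 folds of 0.78 to 1.04. ZNF138 had the largest, with 61.0 reads in knockdown cells against 26.7 in control cells. Distal regions at ZNF736, ZNF680, ZNF107 and ZNF92 reached log2 folds of 0.80 to 1.25.

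Outside both clusters, chromosome 7 had gained promoters at ZNF12, ZNF713, ZNF394, ZNF3, ZNF277 and ZNF800. ZNF12 had a mean of 35.9 reads in the knockdown against 16.4 in the control. ZNF3 had 78.2 reads in the knockdown and 36.7 reads in the control at its more accessible promoter region. ZNF394 had 16.3 and 21.6 reads in the knockdown and 6.02 and 10.1 reads in the control at its pair of promoter regions. The 12 coding ZNF genes of chromosome 7 with no listed region were ZNF117, ZNF316, ZNF479, ZNF655, ZNF679, ZNF716, ZNF722, ZNF727, ZNF735, ZNF775, ZNF789 and ZNF853.

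On chromosome 19 the cluster from ZNF101 to ZNF254 held the most gains. It had 9 of 37 genes gained (24.3%, 11.8 to 41.2%), 8 of them at the promoter, beside 6 of 20 flanking genes. Its members include ZNF91, whose protein represses SVA retrotransposons, with 59.2 reads in knockdown cells against 33.5 in control cells (log2 fold 0.73). ZNF430 had a mean of 65.1 reads in the knockdown against 31.4 in the control (log2 fold 0.92). ZNF85 and ZNF675 had log2 folds of 0.97 and 0.96, and ZNF724, ZNF429 and ZNF254 had 0.75, 0.75 and 0.68. ZNF682 was gained 12.6 kb upstream only, with 12.9 reads in the knockdown and 2.24 reads in the control.

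The other large clusters of chromosome 19 had few gains, and so did the genes beside them. From ZNF577 to ZNF331, 1 of 40 genes was gained (ZNF480, log2 fold 0.86), with an upper limit of 13.2%, beside 2 of 20 flanking genes. From ZNF264 to ZNF8, 1 of 36 was (ZNF548, log2 fold 0.69), with an upper limit of 14.5%, beside 2 of 20 flanking genes. From ZNF565 to ZNF573, 3 of 26 were, namely ZNF565, ZNF345 and ZNF573, beside 1 of 20 flanking genes. From ZNF627 to ZNF791 0 of 24 were gained, which allows up to 14.2%, beside 3 of 20 flanking genes, and 2 genes of the cluster were lost. Off the clusters, ZNF787 had gains of 1.2 and 0.89 (log2 fold) at 2 promoter regions, and ZNF524, in a small cluster, had 40.7 reads in knockdown cells against 16.5 in control cells (log2 fold 1.07). ZNF45 had a mean of 27.1 reads in the knockdown against 10.1 in the control (log2 fold 1.07).

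**Figure D4:**
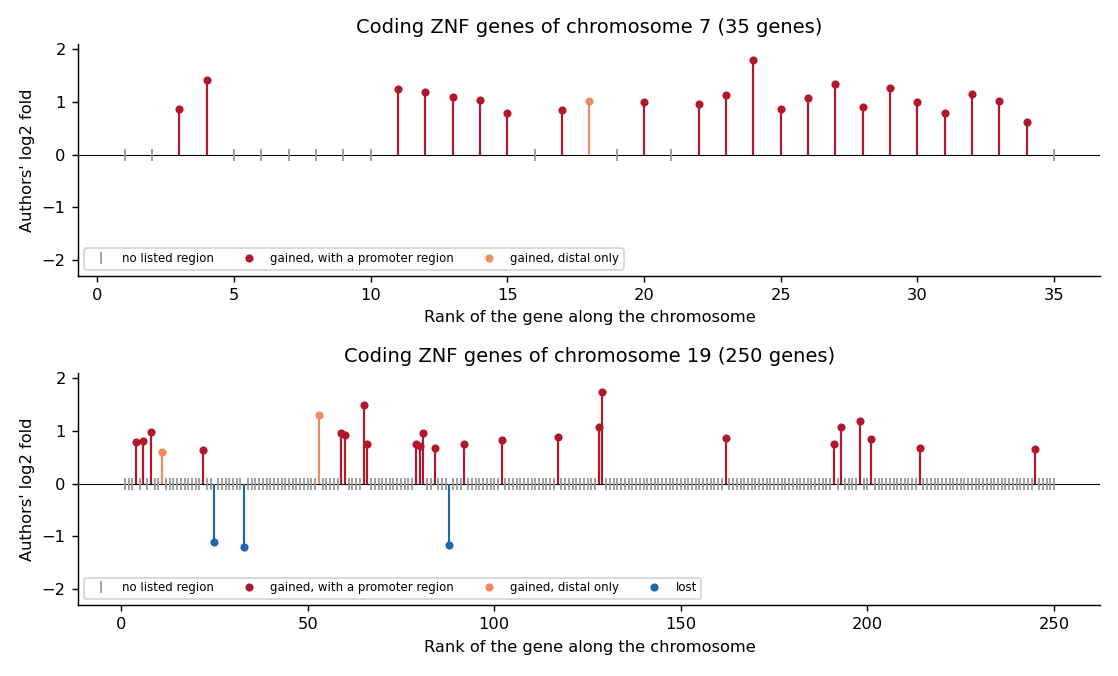
Coding ZNF genes of chromosome 7 (top) and chromosome 19 (bottom) in their order along the chromosome (x axis, rank) with the authors' log2 fold of a listed region (y axis, the largest gained or the lost one per gene), and grey ticks for genes without one. On chromosome 7 the genes at ranks 22 to 34 are all gained, while on chromosome 19 gained genes are scattered among 250 and the 3 lost ones lie at ranks 25 to 88.

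Loss of accessibility was seen at 7 ZNF genes, all at low levels. Lost regions averaged 1.24 to 4.23 reads in the knockdown and 7.59 to 25.7 reads in the control, and 5 of the 7 averaged under 10 reads over all libraries, beside 66.5% of all lost regions. Their median log2 fold was −1.15, beside −0.96 over all lost regions.

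The strongest loss lay 8.12 kb upstream of ZNF157 on chromosome X (47221133 to 47221878), with 4.23 reads in the knockdown and 25.7 reads in the control (log2 fold −1.75, FDR 9.57e-05). ZNF287 on chromosome 17 had an intergenic loss 33.2 kb from its start, with 3.85 reads in knockdown cells against 15.4 in control cells (log2 fold −1.30, FDR 0.00492). These were the 2 lost ZNF regions with an FDR of 0.01 or less.

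The 3 losses at promoters were all on chromosome 19. ZNF878 had a mean of 3.04 reads in the knockdown against 13.3 in the control over its start (log2 fold −1.19, FDR 0.0112). ZNF181 had 3.47 reads in the knockdown and 13.2 reads in the control next to its start (log2 fold −1.15, FDR 0.0128). ZNF441 had 1.24 reads in knockdown cells against 9.31 in control cells (log2 fold −1.11, FDR 0.0186). ZNF441 and ZNF878 belong to the cluster from ZNF627 to ZNF791 and ZNF181 to that from ZNF302 to ZNF792, and neither cluster had a gained gene.

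The remaining pair lay in an intron and in a 3′ UTR. ZNF236 on chromosome 18 had the intronic loss, with a mean of 1.88 reads in the knockdown against 9.91 in the control (log2 fold −1.11, FDR 0.0191). ZNF512B on chromosome 20 was assigned the other region, 3.96 kb upstream of its start, with 1.38 reads in the knockdown and 7.59 reads in the control (log2 fold −0.92, FDR 0.0491). Of the 35 coding ZNF genes of chromosome 7, 0 were lost, beside 2 of 903 other coding genes there.

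Some gained genes have individually known roles. They are named here for those roles, after their values were seen. ZNF410, the activator of the remodeller gene CHD4, had 51.2 reads in knockdown cells against 27.8 in control cells over its start (log2 fold 0.76, FDR 0.0131). ZNF644, a partner of the histone H3 lysine 9 methyltransferases EHMT1 and EHMT2, had 2 gained promoter regions (log2 folds 0.88 and 0.64). ZNF445, a KRAB protein that keeps imprinted methylation, had a mean of 23.6 reads in the knockdown against 10.9 in the control, 1.11 kb from its start (log2 fold 0.85).

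ZNF384, a fusion partner in B-cell acute lymphoblastic leukaemia, had 35.8 reads in the knockdown and 13.8 reads in the control (log2 fold 1.10, FDR 0.00221). ZNF652, which binds the corepressor CBFA2T3 of the same family as the RUNX1T1 part of the fusion of these cells, had 76.6 reads in knockdown cells against 38.4 in control cells (log2 fold 0.88, FDR 0.00118). ZNF148, a transcription factor of GC-rich promoters, reached a log2 fold of 0.77 and ZNF451, a SUMO ligase, 0.70. ZNF622, which acts in ribosome assembly, had a mean of 77.2 reads in the knockdown against 34.7 in the control at its promoter, and 41.7 reads in the knockdown and 14.6 reads in the control in an intron.

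Related families and cofactors were counted in the same way. Among protein-coding genes, gained regions were at 6 of 21 ZFP genes, 4 of 21 ZSCAN genes, 1 of 7 ZKSCAN genes, 15 of 42 ZBTB genes, 9 of 18 KLF genes and 8 of 15 PRDM genes. Of all protein-coding genes, 25.2% had a gained region. The ZNF share of 19.3% was below the interval of the ZBTB share of 35.7% (21.6 to 52.0%), of the KLF share of 50.0% (26.0 to 74.0%) and of the PRDM share of 53.3% (26.6 to 78.7%), and within those of the ZFP, ZSCAN and ZKSCAN shares. The ZNF share off chromosome 19 was 27.7%, inside the intervals of all these families. The families were not split by chromosome, so a difference between them and ZNF genes is not shown.

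A list of 25 genes held the corepressors of KRAB proteins together with general factors of heterochromatin, DNA methylation and chromatin remodelling. Of these 25, 8 were gained (32.0%, beside 25.2% of all coding genes), 7 of them at the promoter (beside 17.5% of all coding genes with a gained promoter), and none was lost (beside 0.818%). The 17 with no listed region were TRIM28, SETDB1, ATF7IP, CBX1, CBX5, MPHOSPH8, PPHLN1, MORC2, CHD3, HDAC1, DNMT3A, DNMT3B, DAXX, ATRX, EHMT1, EHMT2 and SUV39H2. CBX3, the gene of heterochromatin protein HP1 gamma on chromosome 7, had the largest gain, with 34.3 reads in the knockdown and 10.0 reads in the control (log2 fold 1.43). The remodeller gene SMARCAD1 reached 1.21 and the deacetylase gene HDAC2 1.23 in an intron and 0.67 at the promoter. DNMT1 and UHRF1, which maintain DNA methylation, had 0.88 and 0.78. TASOR, of the HUSH complex, had 0.74 and SUV39H1 0.73. CHD4, the target of ZNF410, had 38 reads in knockdown cells against 19 in control cells, 6.36 kb from its start (log2 fold 0.83).

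Promoter letters were counted in the 250 bases upstream of the start on both strands, in 563 windows of 437 coding ZNF genes, of which 77 had a gained promoter (100 windows). The ETS core CCGGAAG was in 32.0% of windows of ZNF genes with a gained promoter, in 24.4% of those of ZNF genes with no listed region and in 10.3% of those of other coding genes (10.7% of all coding windows). The GC box GGGCGG was in 65.0%, 57.2% and 53.6% of the same 3 groups (53.7% of all), and the CCAAT box CCAAT in 37.0%, 43.4% and 32.5% (32.7% of all). GC content had medians of 63.4%, 60.4% and 62.0%. Among other coding genes, too, the ETS core was more common at gained promoters (15.6%) than without a listed region (9.43%), as was the GC box (64.0% and 51.7%).

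The remaining motifs were in fewer windows. The NRF1 letters GCATGCGC were in 9% of gained ZNF windows, 4.07% of ZNF windows with no listed region and 3.22% of other windows (3.26% of all). The RUNX letters TGTGGT, of the family whose member is fused in these cells, were in 9%, 10.2% and 9.35% (9.36% of all). The TATA box TATAAA was rarer in both groups of ZNF windows than in others, at 3%, 3.62% and 9.14% (9.0% of all), and the E-box CACGTG was in 8%, 3.62% and 7.46% (7.37% of all). CRE (TGACGTCA), AP-1 (TGANTCA) and YY1 (AAGATGGC) letters were in at most 5.37% of the windows of any of the 3 groups (2.01%, 5.36% and 1.38% of all).

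The pair of elements in the printed promoters was chosen after the sequences were seen, and is a description. TCCAATCA, which contains the CCAAT box, was in 13.1% of all ZNF windows and 1.29% of other coding windows (1.59% of all), and GTCACTCA in 9.59% of ZNF windows and 0.744% of others (0.969% of all). Both were present in 45 ZNF windows of 45 genes (7.99%), against 2 of 21636 other coding windows. In all 45 ZNF windows GTCACTCA came first, on the strand of the gene, and in 20 of them the spacing was 38 bases and in 10 it was 37. Of the 45 genes, 35 were on chromosome 19 and 5 on chromosome 7. These genes are related by duplication, so that they are not 45 separate cases.

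Genes with both elements had a gained promoter in 11 of 45 cases (24.4%), and other ZNF genes in 66 of 392 (16.8%). The 11 were ZNF85, ZNF91, ZNF92, ZNF107, ZNF138, ZNF141, ZNF429, ZNF493, ZNF675, ZNF678 and ZNF680. Off chromosome 7, the counts were 7 of 40 (17.5%) with both elements and 51 of 366 (13.9%) without, and on chromosome 19 they were 5 of 35 (14.3%) and 16 of 184 (8.70%). These counts include the gained genes in whose printed promoters the pair was seen. ZNF141, ZNF493 and ZNF678 are among the 11 and among the 7 off chromosome 7, and ZNF493 is among the 5 on chromosome 19. The shares with both elements are therefore not independent of that choice, and a link of the pair with gain was not tested. The lost gene ZNF878 carried both as well, so that the pair was present at promoters that changed in either direction and at most of its bearers no change was listed.

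**Figure D5:**
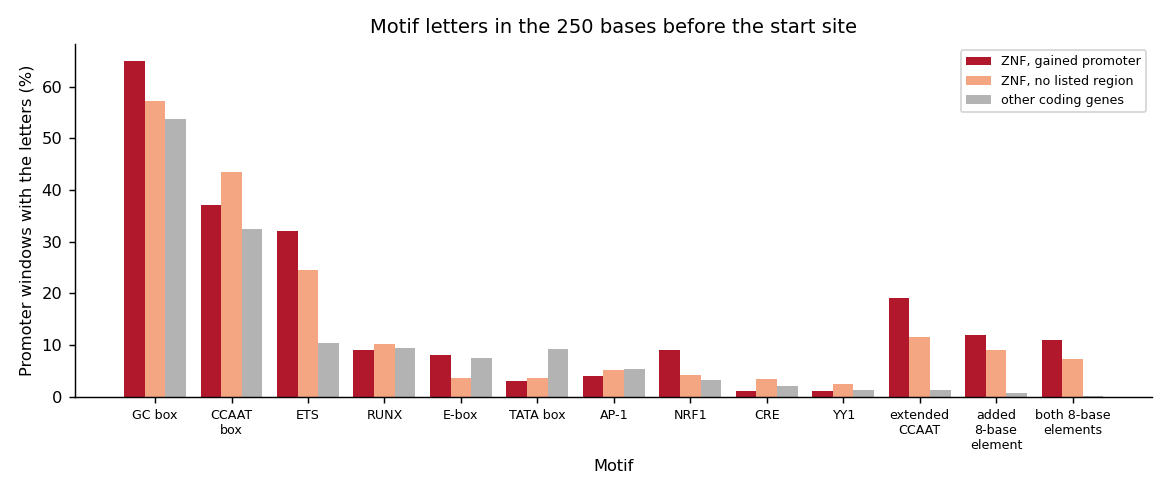
Share of promoter windows (y axis, percent) that hold the letters of each motif (x axis) in the 250 bases upstream of the start, for ZNF genes with a gained promoter (100 windows), ZNF genes with no listed region (442 windows) and other coding genes (21636 windows). The ETS core stands at 32.0%, 24.4% and 10.3%, and the last bars show the pair of 8-base elements at 11.0%, 7.24% and 0.00924%. The pair was chosen after gained promoters that are counted here were read.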

How the data were processed

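ATAC-seq of Kasumi-1 cells was compared between 3 PHF19 knockdown and 4 control libraries. Per the file headers, the authors deposited, for each listed region, the log2 of mean normalised read counts, a log2 fold, a p-value, an FDR, an annotation and a distance in base pairs to the nearest start (handled as a score). Per the submitters' processing notes, MACS2 2.2.6, Bowtie2 2.4.1, deepTools 1.5.12 and Picard 2.2.4 were among the tools. Not given in the sources used here are the differential test, the normalisation, the handling of multiply mapped reads and whether reads were shifted to the transposase cut. The depth of each library is unknown here. The processing notes name hg38, but 0 of 152 ZNF gene starts equalled those of GRCh38 and the transcript identifiers are older, so coordinates were read as hg19.

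The column labelled KP was taken as the knockdown mean, since it had a weight of 0.429 in the overall mean, as 3 of 7 libraries give, and followed the sign of the fold. The number of tested regions, 52675, was recovered from the p-value, the FDR and the rank, which gave a whole number within 0.001 for 67.0% of lost regions. At the largest FDR this implies 8925 passing regions, of which 110 were not listed and are not analysed here.

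Members were rows whose symbol begins with ZNF and a digit. All 152 matched RefSeq (GRCh38.p14) by gene ID, which was used for gene types, neighbours and the 20056 protein-coding genes that served as the background, including those with no accessible region. One more region, at a gene now named ZNF143-AS1, fell outside the pattern. Shares carry exact Clopper-Pearson 95% intervals. No test was run, since values per library were not analysed here. Promoter letters were searched in RefSeq windows of GRCh38.p14, whose starts need not be those of the deposited annotation. The named genes were the protein-coding members with the 10 largest folds, the 5 largest promoter folds on chromosome 19 and the 5 elsewhere, the 5 highest means and the 5 smallest FDR, with all lost genes, all with 3 or more gained regions and all gained on chromosome 7. Members and lists were chosen with earlier results of these data known, and GTCACTCA and TCCAATCA after the promoters were read. Counts and intervals came from scipy 1.17.1 and pandas 2.3.3 with numpy 2.4.6 under Python 3.11.15, figures from matplotlib 3.10.9, and the code was tested on simulated data.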

Additional observations from a re-analysis of the deposited data

How the results depend on the processing

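Across 68 alternatives for 10 results, 48 were counted as close to the value reported and 20 as moved. Some of the 48 were sizeable changes. Gained ZNF genes went from 103 to 79 without chromosome 7, and lost genes from 7 to 5 within 10 kb of a start. None could change direction, since these are counts, shares and medians over regions already listed as gained or lost. At an FDR of at most 0.01, ZNF genes with a gained region numbered 58 and lost genes 2, the gained share was 5.2% on chromosome 19 and 16.1% elsewhere, and median log2 folds were 1.08 over all gained ZNF regions, 1.03 at promoters and 1.24 at distal regions. Where only regions with a log2 fold of 1 or more in size were kept, gained genes numbered 41, the shares were 2.4% and 12.4%, and the medians 1.18, 1.13 and 1.24. With at least 10 mean reads, lost genes numbered 2. Within 10 kb of a start, which removes distal regions by construction, promoters were 91.5% of gained ZNF regions and 91.0% off chromosome 19. Without chromosome 7, the share off chromosome 19 was 22.0%. The difference of the group means, in place of the authors' fold, gave medians of 1.14, 1.09 and 1.31. The causes of the moves were not tested, beyond the stricter thresholds and fewer genes that the alternatives set by construction. No paired analysis was possible because the lists hold no value per library, and for the same reason no library was left out. Regions with few reads, lost ones above all, are the least certain.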
